A study of Drosophila melanogaster with 12 samples.

Results

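Wing imaginal discs carrying an activated Notch transgene (N) were compared with discs of the wild-type control condition (WT) across all genes, from 3 libraries in each group (N1 to N3 and WT1 to WT3). These 6 libraries were taken from the 12 of the study by their group labels alone. The wing imaginal disc is the larval epithelial sac that forms the adult wing and part of the thorax. Each library was made from polyadenylated RNA of a separate pool of 60 discs, dissected from third-instar Drosophila melanogaster 6 days after egg laying, so the p-values below measure the spread between pools of discs.

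The N larvae had the genotype y-, w-, abxUbx-Flp / w-, with Act>y+>Gal4 and UAS eGFP over UAS Nicd, and FRT82B tubGal80 over FRT82B. WT1 had the same elements with + in the place of UAS Nicd. For WT2 and WT3 the title and the condition label read wild type, but the genotype text also lists UAS Nicd. The labels of title and condition were followed, and the values that bear on the conflict are given first. Both groups therefore carried the flippase (Flp), the Gal4 driver, eGFP and the Gal4 repressor Gal80. Gal4 becomes active only in cells in which the flippase has opened the Actin cassette and Gal80 is lost or absent. Such discs are mosaics, and the share of cells that made the transgene is not given in the sources used here. The values are averages over transgenic and other cells of the disc, and fewer cells of a type cannot be told apart from less RNA per cell in them.

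Notch is a receptor in the cell membrane. When its ligands Delta or Serrate on a neighbouring cell bind it, a protease complex cuts it and frees its intracellular part, Nicd, which moves to the nucleus and with the DNA-binding protein Suppressor of Hairless and the co-activator Mastermind turns on target genes. The best known targets are the genes of the Enhancer of split complex, E(spl). In the wing disc Notch acts at the boundary between dorsal and ventral cells, where it turns on wingless, cut and vestigial, the genes of the future wing margin, and it promotes growth of the wing pouch around that boundary. Nicd made from a transgene acts without ligand.

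The transcript of the Notch gene itself (N, X:3134870-3172221 in dm6) was the check of the labels. It had 2340, 2135 and 2127 CPM (counts of a gene per library, scaled to a common library size with the trimmed mean of M values, TMM) in N1 to N3, against 688, 925 and 741 CPM in WT1 to WT3. The groups lay far apart, with a log2 fold change of 1.49 ± 0.12 (SE), which is 2.80-fold (edgeR quasi-likelihood test, Benjamini-Hochberg adjusted p = 0.00059). Reads from UAS Nicd and from the resident gene are counted together under this symbol. WT2 and WT3, whose genotype text lists the transgene, stood at 42.0% and 33.7% of the mean of the N group, and WT1, whose text does not, at 31.3%. WT2 had 134% and WT3 had 108% of the level of WT1. In their Notch transcript all 3 WT libraries thus lay together and below every N library. The gene white (w), which marks many transgenes, was present at 385, 429 and 437 CPM in N and at 456, 411 and 299 CPM in WT and was not called (adjusted p = 0.686).

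The libraries held 36153792 to 42407447 counts in N and 37721478 to 39572136 counts in WT. Among 6790 genes averaging 5 CPM or more, 26 to 64 genes differed by at least 2-fold between N libraries. Between WT1 and WT2 there were 52 such genes, between WT1 and WT3 there were 133, and between WT2 and WT3 there were 128. Between an N and a WT library there were 309 to 443. Several libraries stood apart in groups of genes. WT1 held digestive enzyme RNA of the gut: 18 Jon and Amy symbols summed to 5628 CPM there, against 4.18, 221 and 2.33 CPM in N and 8.60 and 7.36 CPM in WT2 and WT3. N2 held most fat body RNA, where the fat body list summed to 3701 CPM, against 758 and 630 CPM in the other N libraries and 643 to 1311 CPM in WT. N1 had 125 CPM of the male X-chromosome RNA roX1, against 436 and 470 CPM in the other N libraries and 307 to 344 CPM in WT. In the odorant-binding protein list N2 summed to 314 CPM, against 27.2 and 28.6 CPM in the other N libraries and 35.2 to 97.7 CPM in WT. WT3 stood at least 2-fold below both other WT libraries in 73 genes and above both in 9. Of the 14 tested members of the E(spl) and Brd list 13 were lower in WT3 than in both other WT libraries, as were 16 of 17 heat shock genes, against 3073 of 8874 of all genes. Deviations of log2 CPM from the group mean also followed exon length. Their Spearman correlations with it were 0.267, −0.418 and 0.258 in N1 to N3 and −0.269, 0.429 and −0.152 in WT1 to WT3 (8815 genes). For the fitted log2 fold change it was −0.00172. Notch has 10150 exon bases, and the part of length in its level in WT2 was not tested. For exon length a fit with corrected offsets was made. The part of the other differences in the results below was tested only by leaving the libraries out.

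With all 6 libraries, 529 of 8874 tested genes were higher in N, 5.96%, and 762 were lower, 8.59%, so that 14.5% were called in either direction (adjusted p under 0.05, median log2 fold change of all tested genes 0.02). Of the called genes 121 were at least 2-fold higher and 403 at least 2-fold lower in N, and at 4-fold there were 28 and 169. In all 1291 called genes the N libraries lay entirely above or below the WT libraries, which was so for 35.6% of all tested genes. A fit was also made without each library in turn, and 400 genes, 122 higher and 278 lower, were called in every one of these 6 fits. The count rested strongly on WT3: without it 1343 genes were higher (14.7%) and 1307 lower (14.3%), and these included 95.5% of the genes called with all libraries. Without N1 the counts were 148 higher (1.61%) and 361 lower (3.94%), without N2 214 (2.34%) and 445 (4.88%), and without N3 167 (1.82%) and 332 (3.62%). Without WT1 they were 184 (2.05%) and 418 (4.67%), and without WT2 280 (3.08%) and 460 (5.07%). With WT1 as the lone control 866 genes were higher (8.96%) and 946 lower (9.79%), and 66.9% of the genes called with all libraries were among them. DESeq2 on the same 6 libraries called 863 genes higher (9.73%) and 1117 lower (12.6%). No gene was called in opposite directions in any of these fits and the fit with all 6 libraries. Below, "in every fit" refers to the fits that left out 1 library. Where a call failed in some of them, the library left out is named.

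**Figure D1:**
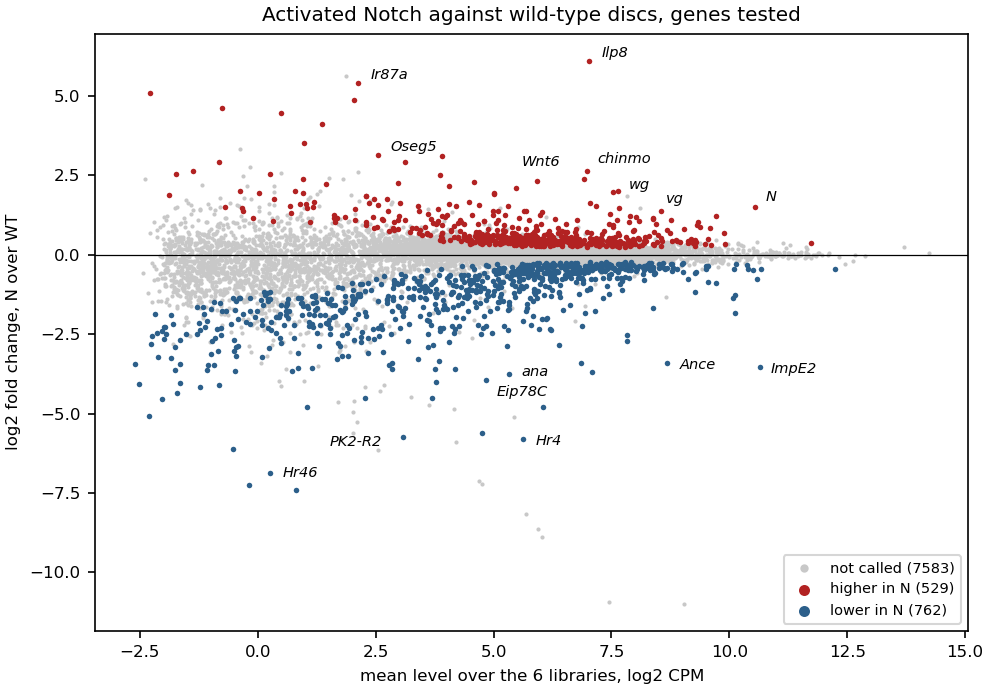
Log2 fold change of N over WT (vertical axis) against the mean level over the 6 libraries in log2 CPM (horizontal axis), 1 point a gene, for the genes tested by edgeR. Red points are genes higher in N (529 called), blue points genes lower in N (762 called) and grey points those not called. Genes with no count in any library of 1 group are not drawn, because their fitted fold change depends on the prior count. Among them are 5 of the lower genes, which have no count in any N library. Ilp8 stands highest at 6.09, and 403 lower genes but 121 higher genes differ at least 2-fold.

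**Figure D2:**
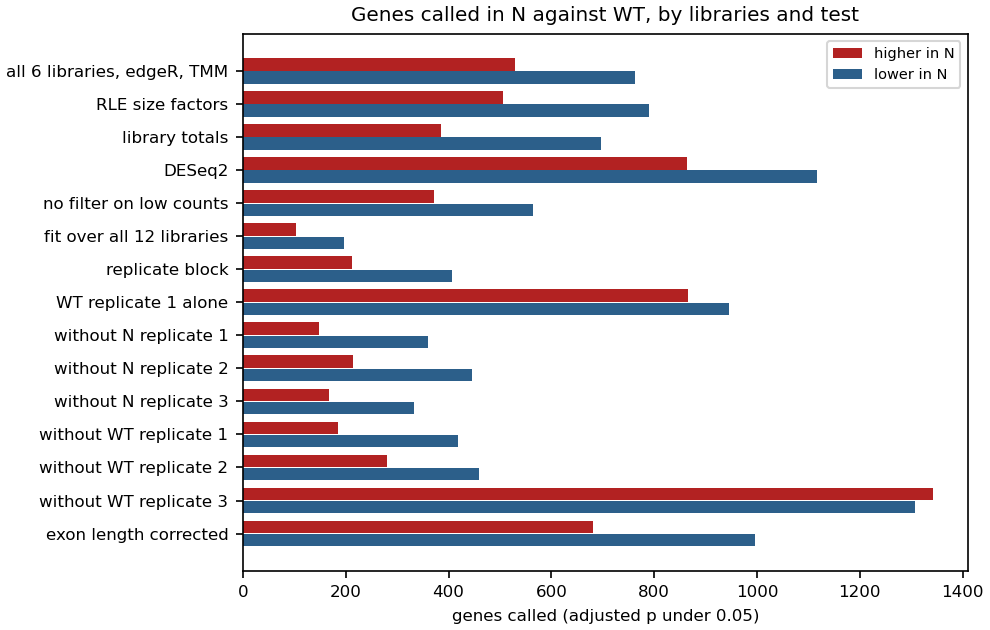
Genes called higher (red) and lower (blue) in N by the libraries, scaling or test used, at an adjusted p under 0.05. Bars without WT3 are the longest, at 1343 and 1307 genes, and those of the fit over all 12 libraries of the study are the shortest, at 103 and 196. The bars of WT1 alone come from a fit that holds no spread between WT pools.

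Among the 24 tested genes of the Notch pathway core 4 were higher and 2 lower, 25.0% against 14.5% of all genes. The 4 higher genes include N, under whose symbol reads of UAS Nicd are also counted. Besides N itself both ligand genes rose. Delta (Dl) had 378, 289 and 333 CPM in N, against 123, 150 and 157 CPM in WT, a log2 fold change of 1.22 ± 0.13 (SE; edgeR adjusted p = 0.00154). Serrate (Ser) had 828, 779 and 900 CPM in N, against 439, 494 and 392 CPM in WT, a log2 fold change of 0.92 ± 0.10 (adjusted p = 0.00202). The groups were well separated for both ligands, and both calls held in every fit. fringe (fng), the sugar transferase that makes Notch respond better to Delta than to Serrate, fell to 253, 266 and 272 CPM in N, against 375, 370 and 366 CPM in WT (log2 fold change −0.49 ± 0.06, adjusted p = 0.00341), in every fit. big brain (bib), a membrane protein that promotes Notch signalling, rose by 0.75 ± 0.13 on the log2 scale (adjusted p = 0.0105), but missed the threshold without N1 (0.0646) or N3 (0.0691). mastermind (mam), the co-activator, fell by 0.56 (adjusted p = 0.0151) and missed it without N1, N2, N3 (0.0506 to 0.0923).

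The remaining 18 tested core genes were not called. They included the genes of the cutting machinery, kuzbanian (kuz, log2 fold change −0.01, adjusted p = 0.934), Psn (−0.21, adjusted p = 0.0952), nct (−0.16, adjusted p = 0.177) and aph-1 (−0.12, adjusted p = 0.384). Su(H), which carries Nicd to DNA, had 28.6, 30.6 and 28.1 CPM in N and 21.0, 20.2 and 27.1 CPM in WT, which did not overlap but was not called (0.35, adjusted p = 0.115). The ligand regulators neur and mib1 stood at log2 fold changes of 0.03 each (adjusted p = 0.925 and 0.845), and the antagonist numb at 0.17 (adjusted p = 0.182). In the fit over all 12 libraries, which takes its spread from the other groups of the study as well, N, Dl, Ser and fng kept almost the same fold changes and missed the threshold (adjusted p = 0.0862, 0.162, 0.243 and 0.179).

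The E(spl) complex is a cluster of genes for repressors of the basic helix-loop-helix (HLH) family and for small Bearded family (BFM) proteins, with its measured members between m-delta and m8 (3R:25997621-26041008 in dm6). Of 14 tested members of the E(spl) and Brd list 2 were higher and 1 lower, 21.4% against 14.5% of all genes. E(spl)m4-BFM had 30.7, 24.2 and 20.3 CPM in N, against 9.05, 8.22 and 7.53 CPM in WT, with clear separation (log2 fold change 1.60 ± 0.17, edgeR adjusted p = 0.00154), and was called in every fit. E(spl)m8-HLH had 43.1, 41.8 and 66.7 CPM in N, against 16.3, 18.3 and 5.92 CPM in WT (1.90 ± 0.41, adjusted p = 0.0229). It too lay higher in every N library than in any WT library, but missed the threshold without N1 (0.0723), N3 (0.102) or WT1 (0.0546). Tom, a Bearded family gene outside the complex, fell by 0.51 (adjusted p = 0.029) and missed the threshold without each library except WT3 (0.0521 to 0.112).

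For 5 other members the call differed with WT3 left out. E(spl)mbeta-HLH had 243, 229 and 308 CPM in N, against 415 and 410 CPM in WT1 and WT2 and 109 CPM in WT3, so that the N libraries lay between the WT libraries (−0.26 ± 0.44, adjusted p = 0.731). E(spl)m7-HLH had 58.5, 44.6 and 69.5 CPM in N, against 89.6 and 93.7 CPM in WT1 and WT2 and 12.6 CPM in WT3 (−0.18 ± 0.62, adjusted p = 0.871). E(spl)m6-BFM had 17.6, 10.3 and 16.5 CPM in N, against 48.1, 54.3 and 10.7 CPM in WT (−1.35 ± 0.54, adjusted p = 0.143). In these 3 genes only WT3 reached down to the N libraries or below them. Without WT3 each was called lower in N, with log2 fold changes of −0.67 for E(spl)mbeta-HLH (adjusted p = 0.0183), −0.67 for E(spl)m7-HLH (0.0385) and −1.79 for E(spl)m6-BFM (0.00479). E(spl)mgamma-HLH had 16.4, 18.6 and 18.6 CPM in N, against 7.59, 10.4 and 1.73 CPM in WT, and E(spl)m2-BFM had 128, 142 and 160 CPM in N, against 94.4, 114 and 28.6 CPM in WT. Both lay above all WT libraries and were not called with all 6 (adjusted p = 0.121 and 0.23). Without WT3 both were called higher, at log2 fold changes of 0.98 (adjusted p = 0.00876) and 0.45 (0.046). Leaving WT3 out thus gave 4 higher and 4 lower members of the list, where 14.7% of all genes were higher and 14.3% lower. E(spl)m3-HLH, E(spl)malpha-BFM, E(spl)mdelta-HLH and the Bearded genes Brd and Ocho overlapped between the groups and were not called with all 6 libraries (adjusted p = 0.395 to 0.863). E(spl)m5-HLH was near 0 in all libraries, at most 0.867 CPM, BobA was listed at 0 throughout, and Kaz-m1, the m1 gene of the complex, was below the filter, at 0.101, 0.307 and 0.186 CPM in N and 5.42, 0.0536 and 0.0244 CPM in WT. The summed level of the list was 932, 862 and 1078 CPM in N, and 1139, 1210 and 356 CPM in WT.

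**Figure D3:**
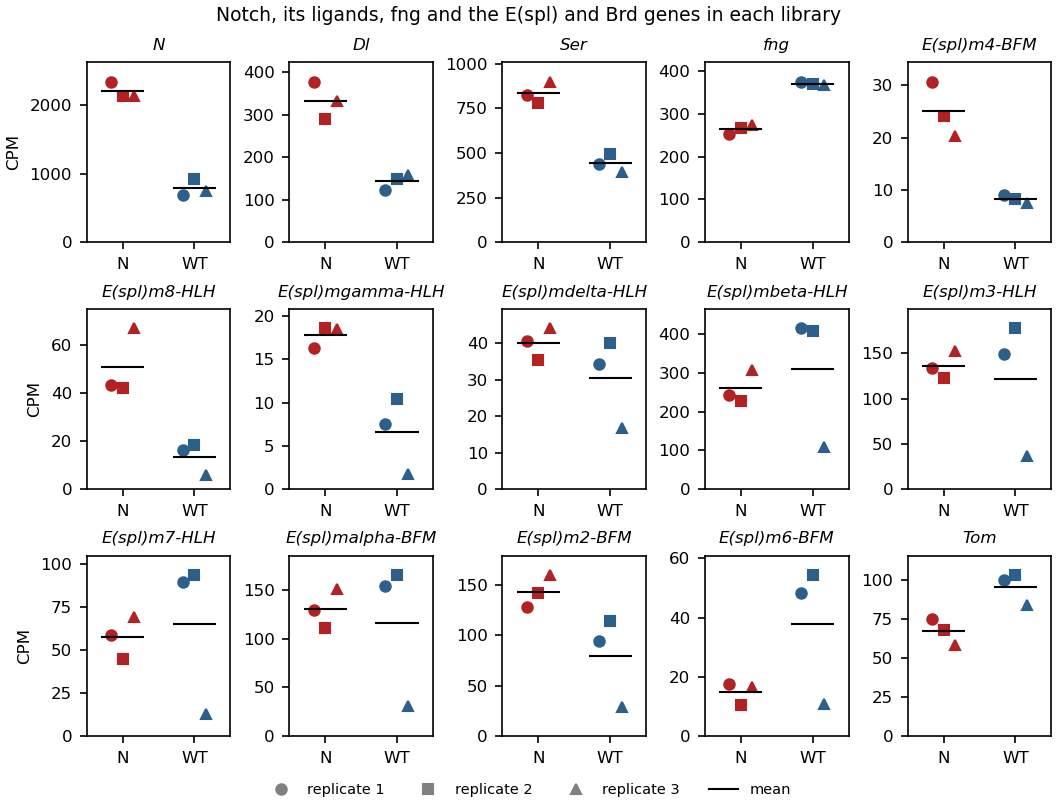
Levels in CPM (vertical axes, linear from 0) of the Notch gene, its ligand genes, fng, and the E(spl) and Bearded genes in each library; N is drawn left in red and WT right in blue, symbols mark replicates 1 to 3, and bars are group means. N, Dl, Ser and E(spl)m4-BFM are separated by group, whereas in most other E(spl) panels the triangle of WT3 lies far below the other WT points.

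Genes of the wing margin and the boundary between dorsal and ventral cells were the list with the largest called share: of 15 tested members 9 rose and 2 fell, 73.3% against 14.5% of all genes, with a median log2 fold change of 0.68. wingless (wg, 2L:7307159-7316265), which encodes the Wnt ligand of the margin, had 353, 292 and 316 CPM in N, against 64.8, 79.2 and 94.2 CPM in WT. The groups were far apart, with a log2 fold change of 2.01 ± 0.15, 4.03-fold (edgeR adjusted p = 0.000424). Its neighbour Wnt6 (2L:7333714-7352542), a Wnt ligand gene expressed in a like pattern in the disc, had 219, 166 and 225 CPM in N, against 42.1, 38.6 and 35.4 CPM in WT, which is 2.39 ± 0.13 on the log2 scale, 5.25-fold (adjusted p = 0.000157). vestigial (vg), the selector gene of the wing, had 548, 511 and 569 CPM in N, against 203, 237 and 191 CPM in WT (1.37 ± 0.10, adjusted p = 0.000424). These 3 genes held in every fit and in the fit over all 12 libraries.

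Beadex (Bx), the LIM-only regulator of the dorsal selector apterous, rose by 0.65 ± 0.09 on the log2 scale in every fit (adjusted p = 0.00407). cut (ct), a homeobox gene of margin cells, had 97.2, 44.6 and 82.5 CPM in N, against 26.0, 35.2 and 25.1 CPM in WT. Although no N library fell among the WT libraries (1.38 ± 0.28, adjusted p = 0.0197), the call was lost without N1 (0.0812), N3 (0.0929) or WT1 (0.0702). deadpan (dpn), an HLH repressor gene that shares 59.3% of its exon bases with an antisense RNA on the other strand, had 200, 197 and 200 CPM in N, against 76.1, 81.6 and 37.7 CPM in WT (1.61 ± 0.26, adjusted p = 0.00848), and missed the threshold without N3 (0.0512). Distal-less (Dll, 0.68), apterous (ap, 0.39) and Wnt10 (1.15) were also called higher (adjusted p = 0.0145, 0.0192 and 0.023), but each lost the call in 3 to 5 of the fits without 1 library, N1 and N3 and WT1 among those left out. The 2 lower genes of the list were tailup (tup), which is a notum gene, and edl, a regulator of EGFR targets. neur, sca and the adaptor gene Chi were not called (adjusted p = 0.173 to 0.925), nor was Wnt4 (0.88 ± 0.30, adjusted p = 0.0973). Without N1, N3 or WT1 the list had 4 or 5 higher genes, against 1.61% to 2.05% of all genes.

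Of 17 tested genes of the pouch and blade list 4 rose and 4 fell, 47.1% against 14.5% of all genes (5.96% higher and 8.59% lower), and the median was 0.12. Besides vg, its partner scalloped (sd) had 888, 799 and 896 CPM in N, against 441, 506 and 466 CPM in WT (0.87 ± 0.08, edgeR adjusted p = 0.00102), and rotund (rn), a zinc finger gene of the pouch, had 301, 320 and 315 CPM in N, against 170, 195 and 199 CPM in WT (0.73 ± 0.08, adjusted p = 0.00173). Both were called in every fit. nubbin (nub) rose by 0.34 (adjusted p = 0.0239), but not without N1, N2, N3 or WT1 (0.0526 to 0.118). The lower genes have roles in veins and intervein tissue. blistered (bs), the intervein factor, had 35.7, 33.1 and 36.6 CPM in N, against 65.1, 80.3 and 95.4 CPM in WT (−1.19 ± 0.14, adjusted p = 0.0021). knot (kn), which patterns the region between the central veins, had 10.2, 7.36 and 12.2 CPM in N, against 33.9, 37.0 and 32.0 CPM in WT (−1.79 ± 0.18, adjusted p = 0.00134). The vein gene ventral veins lacking (vvl) stood at −1.36 ± 0.19 (adjusted p = 0.00412), and these 3 held in every fit. rhomboid (rho), the protease that releases EGFR ligands in veins, was called at −1.39 (adjusted p = 0.0306) and lost the call without any N library or WT1 (0.0766 to 0.105). salm and salr, the spalt genes of the central pouch, and bi were not called (adjusted p = 0.232, 0.216 and 0.0567).

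Genes of the notum, the part of the disc that forms the back of the thorax, were often lower: 9 of 13 tested genes fell, 69.2% against 8.59% of all genes lower, none rose, and the median log2 fold change was −0.82. pannier (pnr), the GATA factor of the medial notum, had 7.62, 8.59 and 11.1 CPM in N, against 44.0, 39.9 and 52.2 CPM in WT (−2.32 ± 0.17, edgeR adjusted p = 0.000458). tup, a LIM homeobox gene of the notum, had 12.2, 14.2 and 14.8 CPM in N, against 40.1, 41.1 and 36.0 CPM in WT (−1.51 ± 0.11, adjusted p = 0.000454). In both the highest N library lay well below the lowest WT library. The homeobox genes B-H1 (−2.89) and C15 (−2.23), the tendon gene sr (−2.18), the pnr cofactor gene ush (−0.82) and toe (−0.59) also fell in every fit. B-H2 (−2.17, adjusted p = 0.0108) lost the call without N1 (0.0525) or N3 (0.0636), and eyg (−0.57, adjusted p = 0.0414) lost it without each library except WT3 (0.0552 to 0.146). The Iroquois genes ara, caup and mirr, which specify the lateral notum, and Antp were not called (log2 fold changes of −0.13 to 0.09, adjusted p = 0.502 to 0.745).

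In the hinge list, the tissue between wing and thorax, 1 of 16 tested genes rose and 7 fell, 50.0% against 14.5% of all genes. The T-box genes Doc1, Doc2 and Doc3 fell together: Doc1 had 7.52, 7.56 and 7.24 CPM in N, against 20.9, 24.0 and 26.7 CPM in WT (−1.68 ± 0.12, edgeR adjusted p = 0.000443), with Doc2 at −1.82 and Doc3 at −1.24. sob, a zinc finger gene, stood at −0.88 (adjusted p = 0.000923). These 4 held in every fit, and elB was higher in every fit (0.50 ± 0.07, adjusted p = 0.00359). Sox15 (−0.50), tsh (−0.34) and hth (−0.27), of which tsh and hth are hinge and body wall selectors, were called with all 6 libraries (adjusted p = 0.0106, 0.0326 and 0.0496) and lost the call in 2, 5 and 6 of the fits without 1 library, those without N1 or N3 among them. Of the list of genes that mark other discs, 4 of 7 tested genes fell and none rose, 57.1% against 14.5% of all genes. eyes absent (eya) had 4.81, 4.74 and 4.35 CPM in N, against 22.6, 25.4 and 25.2 CPM in WT (−2.39 ± 0.12, adjusted p = 6.97e-05). Its partners sine oculis (so, −1.09 ± 0.13, adjusted p = 0.00236) and dachshund (dac, −1.48 ± 0.11, adjusted p = 0.000501) fell as well, each in every fit. The haltere gene Ubx had 3.19, 4.16 and 2.28 CPM in N, against 7.94, 5.22 and 5.17 CPM in WT and was not called (−0.93 ± 0.31, adjusted p = 0.0882). Of the compartment and Hedgehog list 1 of 12 genes was called, 8.33% against 14.5% of all genes: ptc, the Hedgehog receptor gene (−0.74, adjusted p = 0.0232), and it missed the threshold without each library except WT3 (0.0568 to 0.102). The posterior genes en, inv and hh were not called (adjusted p = 0.74, 0.767 and 0.119).

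The secreted signal genes held the largest single rise. Ilp8 (3L:17029812-17032080), the relaxin-like hormone that imaginal discs release under damage or overgrowth and that delays metamorphosis, had 357, 216 and 194 CPM in N, against 6.40, 2.60 and 2.27 CPM in WT. The lowest N library lay far above the highest WT library, with a log2 fold change of 6.09 ± 0.48, 68.3-fold (edgeR adjusted p = 0.000509). The JAK/STAT ligand genes followed. upd1 had 33.1, 23.4 and 26.2 CPM in N, against 9.22, 9.61 and 9.73 CPM in WT (1.53 ± 0.15, adjusted p = 0.000925), and upd3 had 18.1, 10.1 and 10.5 CPM in N, against 2.95, 3.32 and 1.83 CPM in WT (2.26 ± 0.33, adjusted p = 0.0053). All 3 were called in every fit. upd2 had 12.4, 6.41 and 5.21 CPM in N, against 3.58, 2.76 and 1.07 CPM in WT, without overlap but also without a call (1.70 ± 0.51, adjusted p = 0.0664). In the JAK/STAT pathway list chinmo, a zinc finger gene that keeps cells in a juvenile state and is known to be regulated by STAT, was the 1 called gene of 11, 9.09% against 14.5% of all genes: it had 219, 253 and 183 CPM in N, against 23.5, 51.4 and 30.8 CPM in WT (2.63 ± 0.29, adjusted p = 0.00171), in every fit. The STAT target Socs36E had 180, 145 and 144 CPM in N, against 125, 115 and 89.0 CPM in WT and was not called (0.51 ± 0.14, adjusted p = 0.0562). The receptor gene dome and Stat92E were not called (adjusted p = 0.218 and 0.401).

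Of the 26 tested secreted signal genes 8 fell and 3 rose, 42.3% against 14.5% of all genes (8.59% lower and 5.96% higher). The growth factor gene Pvf2 (−1.15 ± 0.14, edgeR adjusted p = 0.00236), the BMP-binding protein gene cv-2 (−1.12 ± 0.15, adjusted p = 0.00349) and the FGF gene ths (−0.46 ± 0.08, adjusted p = 0.00878) fell in every fit. The EGFR inhibitor gene aos had 15.9, 14.4 and 16.5 CPM in N, against 41.8, 58.9 and 24.2 CPM in WT (−1.42, adjusted p = 0.0196), and missed the threshold without any N library or WT1 (0.0561 to 0.0892). The tumour necrosis factor gene egr (−0.92, adjusted p = 0.0404) lost its call without N1, N3, WT1 or WT2 (0.113 to 0.133). Pvf3, pyr and Idgf4 were also called lower (adjusted p = 0.0239, 0.0462 and 0.0151) and were lost without N1 and without WT1, among others. The morphogen gene dpp stood at 0.32 ± 0.10 (adjusted p = 0.0752) and the EGF gene spi at 0.09 ± 0.13 (adjusted p = 0.669).

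**Figure D4:**
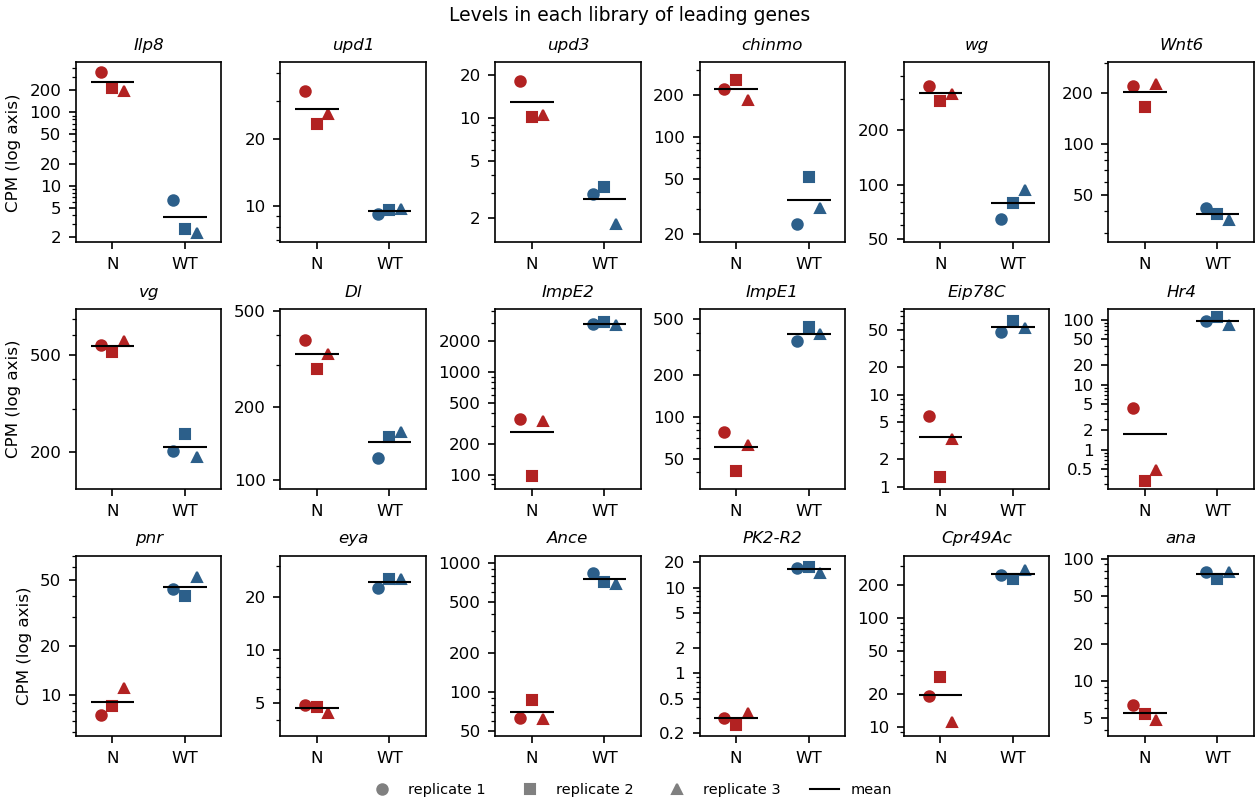
Levels in CPM on log axes of 18 genes in each library, N left in red and WT right in blue, with symbols for replicates 1 to 3 and bars for group means. In every panel the N libraries lie entirely above or entirely below the WT libraries; among the N libraries replicate 2 is the lowest for ImpE2, ImpE1 and Eip78C.

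The steroid hormone ecdysone drives the timed programme of gene expression before pupariation, in which receptors such as EcR are followed by early and later genes. Of 25 tested genes of this list 3 rose and 7 fell, 40.0% against 14.5% of all genes. ImpE2, an ecdysone-inducible gene of imaginal discs, had 346, 97.0 and 334 CPM in N, against 2943, 3067 and 2910 CPM in WT (−3.52 ± 0.45, edgeR adjusted p = 0.00328). ImpE1 had 77.8, 40.6 and 62.2 CPM in N, against 352, 440 and 391 CPM in WT (−2.71 ± 0.23, adjusted p = 0.000672). Among the nuclear receptor genes Hr4 had 4.35, 0.335 and 0.489 CPM in N, against 95.8, 109 and 84.7 CPM in WT (−5.80 ± 0.84, adjusted p = 0.00551), and Eip78C had 5.87, 1.28 and 3.35 CPM in N, against 47.2, 62.2 and 51.8 CPM in WT (−3.93 ± 0.48, adjusted p = 0.00248). Hr46, which acts between the early and late genes, was at 0.0279 CPM or less in N, against 2.49, 1.63 and 3.00 CPM in WT (adjusted p = 0.00102). Of the exon bases of Hr46, 82.7% are shared on the same strand, mainly with CG12912. The N level of these genes was a small part of the WT level in every library, and these 5 calls held in every fit. Blimp-1, a repressor gene of the same programme, had 2.76, 0.139 and 0.349 CPM in N, against 27.2, 56.9 and 75.3 CPM in WT (−5.61 ± 0.93, adjusted p = 0.00933), but missed the threshold without N3 (0.0596), and ImpL1 (−2.18, adjusted p = 0.0137) missed it without N2 (0.0524) or 3 (0.0831).

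The 3 higher genes were EcR, the receptor gene, with 252, 243 and 235 CPM in N, against 146, 172 and 143 CPM in WT (0.66 ± 0.09, edgeR adjusted p = 0.00343), ftz-f1, a later nuclear receptor gene, with 45.4, 54.2 and 48.7 CPM in N, against 18.2, 23.5 and 15.2 CPM in WT (1.38 ± 0.16, adjusted p = 0.00236), and Cyp18a1, whose enzyme breaks down ecdysone. The first 2 held in every fit. Cyp18a1 had 12.3, 4.24 and 6.35 CPM in N, against 1.52, 2.12 and 2.75 CPM in WT (1.84 ± 0.44, adjusted p = 0.0327) and lost the call without N1, N3, WT1 or WT2 (0.0938 to 0.123). The early genes Eip74EF, Eip75B and br were not called: br had 1595, 1360 and 1401 CPM in N and 1438, 1946 and 1742 CPM in WT, with overlap (−0.23 ± 0.13, adjusted p = 0.255), Eip74EF stood at −0.07 and Eip75B at −0.04 (adjusted p = 0.706 and 0.875).

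Cuticle protein genes build the exoskeleton, and most of the 126 members found were silent or nearly so: 40 passed the filter on low counts, of which 10 fell and 3 rose, 32.5% against 14.5% of all genes. Cpr49Ac had 19.2, 28.4 and 11.1 CPM in N, against 250, 229 and 277 CPM in WT (−3.69 ± 0.32, edgeR adjusted p = 0.000691). Cpr64Aa had 21.1, 21.8 and 16.4 CPM in N, against 104, 88.3 and 82.8 CPM in WT (−2.22 ± 0.14, adjusted p = 0.000273), and Cpr49Ag (−2.32) and Cpr65Ec (−3.61) were likewise lower in every fit. In the other direction Cpr66D had 70.0, 55.3 and 51.3 CPM in N, against 21.6, 19.0 and 20.2 CPM in WT (1.54 ± 0.13, adjusted p = 0.000672). TwdlE rose by 2.10 (adjusted p = 0.00249), and 71.9% of its exon bases lie opposite another gene, lectin-28C. The count of lower cuticle genes was 5 to 7 in the fits without N1, N2, N3, WT1 or WT2, where 3.62% to 5.07% of all genes were lower, and 13 without WT3, where 14.3% were. Among serpins and immune genes 2 of 19 tested rose and 4 fell, 31.6% against 14.5%. The serpin gene Spn43Aa had 33.4, 10.7 and 15.6 CPM in N, against 246, 181 and 209 CPM in WT (−3.41 ± 0.41, adjusted p = 0.00236), and was the 1 member called lower in every fit.

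In the basement membrane list, which holds matrix proteins, their receptors and the enzymes that process them, 10 of 20 genes fell and none rose, 50.0% against 8.59% of all genes lower, with a median of −0.38. The collagen IV genes are Cg25C and vkg. Cg25C had 96.5, 89.3 and 84.8 CPM in N, against 132, 135 and 137 CPM in WT (−0.57 ± 0.07, edgeR adjusted p = 0.00253), and vkg had 69.3, 59.1 and 61.6 CPM in N, against 93.5, 93.8 and 97.8 CPM in WT (−0.58 ± 0.08, adjusted p = 0.00389). The metalloprotease gene Mmp2 had 23.3, 14.7 and 22.5 CPM in N, against 58.7, 64.5 and 59.0 CPM in WT (−1.59 ± 0.17, adjusted p = 0.00171), and Timp, which encodes the inhibitor of such proteases, had 3.34, 2.71 and 2.82 CPM in N, against 13.0, 13.5 and 9.56 CPM in WT (−2.02 ± 0.20, adjusted p = 0.00121). The protease and its inhibitor were thus lower together, and these 4 genes held in every fit. The other 6, among them LanB2, Dg and SPARC (log2 fold changes of −0.42, −0.38 and −0.38), lost their calls without N1 or N3 and in most other fits. In each fit without N1, N2, N3, WT1 or WT2, 4 or 5 members were lower, where 3.62% to 5.07% of all genes were.

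Of 28 cell cycle genes 6 were called higher and none lower, 21.4% against 5.96% of all genes higher, and 22 were not called; the median log2 fold change was 0.21. string (stg), the phosphatase gene that drives entry into mitosis, had 276, 228 and 238 CPM in N, against 146, 187 and 147 CPM in WT (0.63 ± 0.12, edgeR adjusted p = 0.016). E2f1, Mcm3, Mcm5, Orc1 and aurB rose by 0.32 to 0.51 on the log2 scale. None of the 6 held in every fit. Without N1 or N3 no cell cycle gene was called, and without WT1 there was 1, where 1.61% to 2.05% of all genes were higher. Without N2 there were 4 and without WT2 there were 5, against 2.34% and 3.08% of all genes. Without WT3 there were 6, where 14.7% of all genes were higher. Of 23 ribosome biogenesis genes 8 were called higher and none lower, 34.8% against 5.96% of all genes higher, and 15 were not called; the median was 0.36. RpI1, the largest subunit gene of RNA polymerase I, had 190, 170 and 186 CPM in N, against 115, 124 and 139 CPM in WT (0.53 ± 0.09, adjusted p = 0.00981), and lost the call without N1 (0.0621) or 3 (0.0593). The nucleolar gene nclb rose by 0.62 (adjusted p = 0.0106) and missed it without N3 (0.0565). This count depended on the libraries, with 1 gene called without N1 or N3 and 2 to 4 without N2, WT1 or WT2. In these fits 1.61% to 3.08% of all genes were higher. Without WT3 there were 16, where 14.7% of all genes were higher. The structural genes of the cytosolic ribosome were at a median of −0.01 with 1 of 85 called, RpLP0-like (0.50 ± 0.08, adjusted p = 0.00622), which is not a structural subunit. Of 71 mitochondrial ribosomal protein genes none was called by edgeR with all 6 libraries. By edgeR 3 had an unadjusted p under 0.05, against 2688 of all 8874 tested genes. DESeq2 called 1 higher, where it called 9.73% of all genes higher. Without WT3 16 of them were higher, beside the 14.7% of all genes.

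Of 15 glycolysis genes 6 fell and none rose, 40.0% against 8.59% of all genes lower. The sugar transporter gene Glut1 had 27.1, 19.5 and 29.0 CPM in N, against 61.7, 66.2 and 61.0 CPM in WT (−1.32 ± 0.15, edgeR adjusted p = 0.00189). fbp, whose enzyme runs the reverse path of sugar synthesis, had 37.6, 42.4 and 51.0 CPM in N, against 81.9, 81.9 and 85.7 CPM in WT (−0.93 ± 0.11, adjusted p = 0.00246), and Tpi stood at −0.63 ± 0.09 (adjusted p = 0.00433). These 3 held in every fit. Pgk, Eno and Pglym78 fell by 0.31, 0.35 and 0.44 and lost their calls without N1, N3 or WT1, and Pgk also without N2 (0.0599) or WT2 (0.0545).

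**Figure D5:**
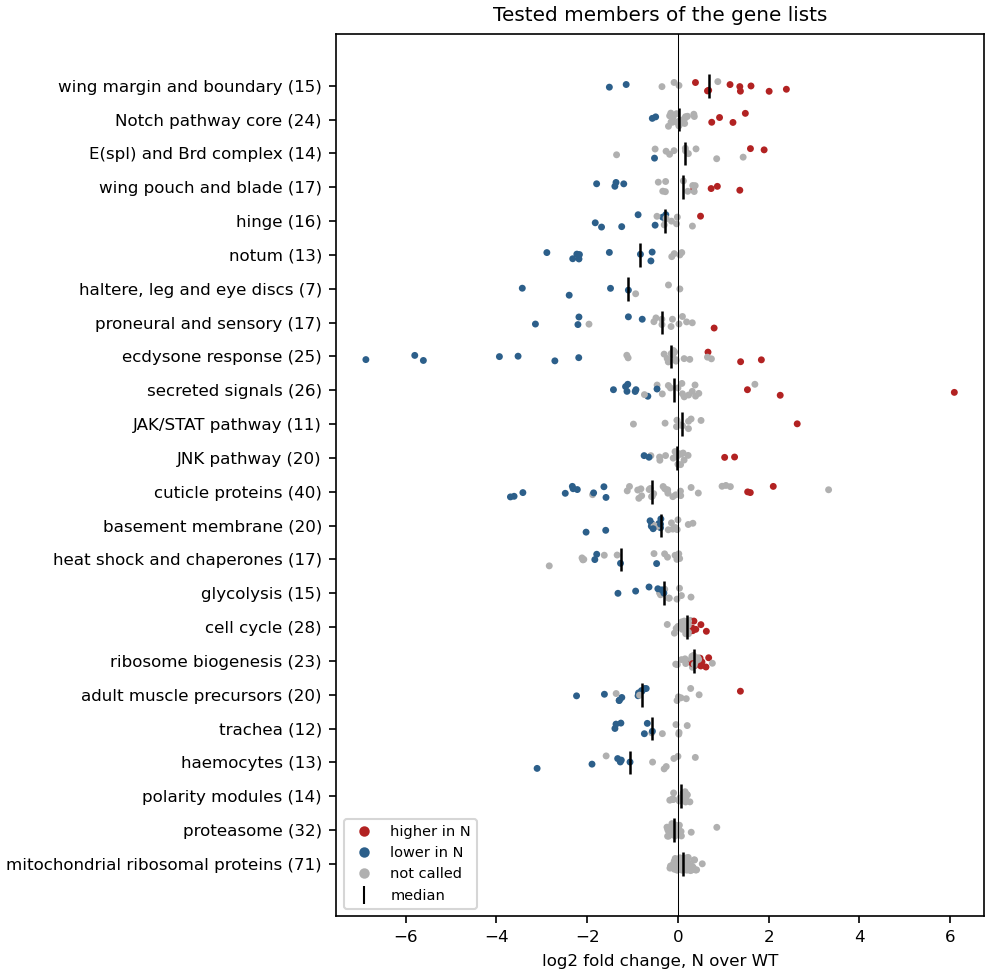
Log2 fold change of N over WT (horizontal axis) of the tested members of 24 gene lists, with the number tested in brackets; red members were higher and blue members lower in N at an adjusted p under 0.05, grey members were not called, and the vertical bar is the median of the list. Margin genes lie mostly to the right, notum, adult muscle precursor, trachea and haemocyte genes mostly to the left, and proteasome and polarity genes around 0.

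Sensory organ precursors arise from proneural clusters, and Notch signalling represses this fate. Of 17 tested proneural and sensory genes 1 rose and 5 fell, 35.3% against 14.5% of all genes. extramacrochaetae (emc), the antagonist of the proneural factors and a gene that Notch activates in the disc, had 713, 603 and 672 CPM in N, against 342, 369 and 432 CPM in WT (0.80 ± 0.11, edgeR adjusted p = 0.00406), in every fit. hairy (h), a repressor gene of achaete, fell to 31.9, 31.7 and 25.5 CPM in N, against 62.7, 66.4 and 60.6 CPM in WT (−1.09 ± 0.11, adjusted p = 0.00102), also in every fit. senseless (sens), which marks the precursors, had 0.962, 0.446 and 0.978 CPM in N, against 3.04, 3.29 and 4.53 CPM in WT (−2.18 ± 0.39, adjusted p = 0.013), and lost the call without N1 (0.0558) or 3 (0.0574). phyl (−2.20, adjusted p = 0.00635) and ase (−3.14, adjusted p = 0.0124), which act in the same cells, were low in both groups. Both lost their calls without N1, and ase also without N3 (0.0593) or WT2 (0.0519). The proneural genes achaete (ac) and scute (sc) overlapped between the groups (−0.15 and −0.35, adjusted p = 0.538 and 0.298).

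In the Wingless pathway list 2 of 25 genes rose and 4 fell, 24.0% against 14.5% of all genes. The target and receptor-like gene fz3 had 149, 148 and 147 CPM in N, against 53.3, 64.4 and 93.3 CPM in WT (1.07 ± 0.19, edgeR adjusted p = 0.0111), and was just above the threshold without N1 (0.0506) or 3 (0.055). The receptor genes fz2 and arr, which Wingless represses in the disc, had log2 fold changes of −0.76 ± 0.12 (adjusted p = 0.00755) and −0.60 ± 0.10 (adjusted p = 0.00857), and both missed the threshold without N3 (0.0523 and 0.0584). Wnt2 had 21.1, 13.2 and 19.9 CPM in N, against 49.7, 56.8 and 47.1 CPM in WT (−1.50 ± 0.18, adjusted p = 0.00238), the 1 member that held in every fit. The Dpp pathway list had 3 higher and 3 lower genes of 15, 40.0% against 14.5%. magu (also called pent), a feedback regulator gene that Dpp represses, had 447, 467 and 462 CPM in N, against 199, 213 and 219 CPM in WT (1.13 ± 0.07, adjusted p = 0.000205), and brk, the repressor gene that Dpp switches off, had 112, 108 and 108 CPM in N, against 66.5, 74.9 and 78.2 CPM in WT (0.58 ± 0.08, adjusted p = 0.00389). The follistatin gene Fs, with 30.0% of its exon bases opposite CG8079, fell (−1.05 ± 0.14, adjusted p = 0.00343). These 3 held in every fit, while the calls of Smox, tkv and daw did not, each being lost without N2 or N3, among others. EGFR pathway genes numbered 4 lower of 17, rho, ru, aos and edl, which is 23.5% against 8.59% of all genes lower. None of them held in every fit: 0 to 2 members were lower without N1, N2, N3, WT1 or WT2 (3.62% to 5.07% of all genes), and 5 without WT3 (14.3% of all genes). In the Hippo list ft and Diap1 rose (0.69 and 0.42, adjusted p = 0.0324 and 0.0303) and lft fell (−0.43, adjusted p = 0.0212) of 18, a share of 16.7% that is near the 14.5% of all genes, and no member was called without N1, N2, N3 or WT1.

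Marker lists of other cell types that lie on or beside the disc were measured too, and their part in the other results was not tested. Adult muscle precursors, the myoblasts under the notum, had 11 lower and 1 higher of 20 tested genes, 60.0% against 14.5% of all genes, with a median of −0.79. twist (twi), their defining transcription factor gene, had 17.1, 16.7 and 18.2 CPM in N, against 43.0, 46.5 and 33.1 CPM in WT (−1.23 ± 0.14, edgeR adjusted p = 0.00185). zfh1 stood at −1.29 ± 0.10 (adjusted p = 0.000535), the FGF receptor gene htl at −0.80 ± 0.09 (adjusted p = 0.00165) and its adaptor gene stumps at −0.70 ± 0.08 (adjusted p = 0.00208). With Act57B, how and rst these 7 held in every fit. Mef2, another myoblast factor gene, had 85.4, 79.5 and 87.5 CPM in N and 82.1, 87.1 and 81.1 CPM in WT (0.01 ± 0.07, adjusted p = 0.922). The higher member was ct, which is also a margin gene. The summed level of the list was 849 to 958 CPM in N and 1009 to 1152 CPM in WT.

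Tracheal markers had 6 lower and none higher of 12, 50.0% against 14.5% of all genes. trachealess (trh), the defining factor gene, had 34.3, 33.6 and 35.9 CPM in N, against 80.5, 92.8 and 74.4 CPM in WT (−1.25 ± 0.10, edgeR adjusted p = 0.000501), and the FGF receptor gene breathless (btl) had 5.80, 5.08 and 5.49 CPM in N, against 13.9, 16.8 and 12.2 CPM in WT (−1.39 ± 0.17, adjusted p = 0.00241). The chitin-related genes serp, Gasp and knk were not called (adjusted p = 0.905, 0.289 and 0.922), and the list summed to 1693 to 1895 CPM in N and 2314 to 2548 CPM in WT. Haemocyte markers had 6 lower of 13 tested, 46.2% against 14.5%, with a median of −1.05, but 1 of them, NimC1, in every fit: it had 0.329, 0.251 and 0.535 CPM in N, against 2.39, 2.57 and 4.73 CPM in WT (−3.10 ± 0.46, adjusted p = 0.0058). The defining markers Hml and Pxn overlapped between the groups (−0.30 and 0.00, adjusted p = 0.431 and 0.996). The haemocyte list summed to 103 to 124 CPM in N and 126 to 233 CPM in WT. In each fit without N1, N2, N3, WT1 or WT2, 1 or 2 members were lower, where 3.62% to 5.07% of all genes were.

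Fat body markers had 1 higher gene of 11, 9.09% against 14.5% of all genes: the fatty acid synthase gene FASN1 with 481, 349 and 267 CPM in N, against 202, 178 and 143 CPM in WT (1.07 ± 0.22, edgeR adjusted p = 0.0205), which lost its call without N1 or N2 or WT2 (0.0526 to 0.0662). The larval serum protein genes were set by N2: Lsp1beta had 7.75, 1162 and 34.0 CPM in N, against 254, 33.3 and 149 CPM in WT (adjusted p = 0.571). Without N2, Fbp1 and Fbp2 were called lower, and Fbp2 had 1.65, 129 and 3.44 CPM in N, against 28.1, 17.6 and 10.3 CPM in WT. Fbp1 had 2.35, 16.8 and 0.628 CPM in N, against 44.4, 36.0 and 40.3 CPM in WT, with no overlap and no call when all 6 libraries were used (−2.62 ± 0.97, adjusted p = 0.116). Neuron and glia markers had 1 lower gene of 8, 12.5% against 14.5%: the glial gene Gs2 (−1.93, adjusted p = 0.0217, lost without N1, N3 or WT1), and their sum was 81.4 to 95.2 CPM in N and 76.6 to 82.8 CPM in WT. Of the salivary gland and gut list 6 of 15 members were tested and none was called by edgeR. By edgeR 3 had an unadjusted p under 0.05, against 2688 of all 8874 tested genes. DESeq2 called 1 lower, where it called 12.6% of all genes lower. Without WT3 there were 7 lower members, where 14.3% of all genes were lower. The list summed to 1.95, 68.8 and 0.605 CPM in N and 852, 7.18 and 3.29 CPM in WT.

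Heat shock genes had 4 lower of 17, 23.5% against 14.5% of all genes: the small heat shock genes Hsp27, with 801, 524 and 638 CPM in N, against 1583, 1553 and 1576 CPM in WT (−1.26 ± 0.15, edgeR adjusted p = 0.00218), and Hsp67Ba (−1.79 ± 0.16, adjusted p = 0.000744, with 75.9% of its exon bases opposite an antisense RNA) in every fit, Hsp23 (−1.83, adjusted p = 0.00734) except without N3 (0.0585), and Hsc70-3 (−0.47, adjusted p = 0.0375), which held only without WT3. Hsp68 ranged widely within both groups, at 128, 8.51 and 42.5 CPM in N and 281, 267 and 4.56 CPM in WT (adjusted p = 0.447). The median log2 fold change of the heat shock list was −1.26. Without WT3 it had 8 lower genes, where 14.3% of all genes were lower. Without any other library it had 2 or 3, where 3.62% to 5.07% were. DESeq2 called 6 lower, where it called 12.6% of all genes lower. In the JNK pathway list 2 of 20 rose and 2 fell, 20%, near the 14.5% of all genes. The filamin gene cher had 913, 885 and 802 CPM in N, against 381, 502 and 388 CPM in WT (1.03 ± 0.12, adjusted p = 0.00233), in every fit. Ets21C, wgn and scaf lost their calls without N1, and Ets21C also without N2, N3 or WT2 (0.0646 to 0.139). Without N2, N3, WT1 or WT2 the list had 1 lower gene, where 3.62% to 5.07% of all genes were lower. Without WT3 the list had 2 higher and 6 lower genes, where 14.7% and 14.3% of all genes were called. Cell polarity modules had no called gene of 14 by edgeR, 3 with an unadjusted p under 0.05 and 1 higher by DESeq2. Of all 8874 tested genes 2688 had an unadjusted p under 0.05 by edgeR. DESeq2 called 9.73% of all genes higher and 12.6% lower. Proteasome subunits had none of 32 by edgeR, 5 with an unadjusted p under 0.05 and 3 lower by DESeq2, and septate junction genes 1 higher and 2 lower of 17, a share of 17.6% that is near the 14.5% of all genes, none of them in every fit. Of the list for dosage compensation and sex 1 of 10 was called, 10% against 14.5% of all genes: fruitless (fru), with 429, 505 and 442 CPM in N, against 178, 230 and 213 CPM in WT (1.15 ± 0.11, adjusted p = 0.00118), in every fit.

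Outside the lists described above, the largest fold changes among genes averaging 5 CPM or more were the following. Oseg5, a gene of ciliary transport, had 10.9, 9.65 and 11.1 CPM in N, against 1.06, 1.02 and 1.54 CPM in WT (3.13 ± 0.24, edgeR adjusted p = 0.000501). CG11000 had 29.3, 26.0 and 25.5 CPM in N, against 3.04, 3.03 and 3.29 CPM in WT (3.11 ± 0.12, adjusted p = 3.43e-05). The chitin deacetylase gene Cda5 had 95.3, 119 and 87.7 CPM in N, against 19.1, 24.2 and 16.9 CPM in WT (2.33 ± 0.17, adjusted p = 0.000424). dsx-c73A, CG15756, CG12164, CG16884 and yellow-e were 3.81-fold to 5.61-fold higher, and all 8 were called in every fit. GstD3, a glutathione S-transferase gene with close paralogs, had 14.6, 16.2 and 15.5 CPM in N, against 2.17, 2.44 and 1.54 CPM in WT (2.91 ± 0.21, adjusted p = 0.000424).

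Among the lowest was PK2-R2, a neuropeptide receptor gene, with 0.304, 0.251 and 0.349 CPM in N, against 17.1, 17.4 and 14.9 CPM in WT (−5.75 ± 0.21, edgeR adjusted p = 3.43e-05). anachronism (ana), which encodes a secreted glycoprotein of glia that holds back neuroblast division, had 6.38, 5.44 and 4.82 CPM in N, against 77.3, 68.6 and 78.3 CPM in WT (−3.75 ± 0.13, adjusted p = 3.43e-05). Ance, the angiotensin-converting enzyme gene of the fly, had 62.6, 86.3 and 61.7 CPM in N, against 844, 709 and 694 CPM in WT (−3.42 ± 0.16, adjusted p = 6.97e-05). The serpin gene Spn100A had 6.58, 0.530 and 6.61 CPM in N, against 120, 147 and 116 CPM in WT (−4.79 ± 0.72, adjusted p = 0.00603). sm, CG11835, CG5639, CG2016 and CG13023 were 11.1-fold to 22.8-fold lower, and all of these 9 genes were called in every fit. Genes that were under 1 CPM in every library of 1 group and at 5 CPM or more in every library of the other numbered 4. Ir87a, of the ionotropic receptor family, had 11.7, 8.45 and 5.38 CPM in N, against 0.190, 0.187 and 0.219 CPM in WT, and CG42808 had 8.28, 9.20 and 6.52 CPM in N, against 0.244, 0.402 and 0.171 CPM in WT. The cytochrome P450 gene Cyp6g2 was the reverse, with 0.557, 0.335 and 0.326 CPM in N, against 8.10, 11.3 and 8.44 CPM in WT, as was PK2-R2.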

How the data were processed

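Messenger RNA of 3 N and 3 WT wing disc pools was measured. The authors deposited raw read counts per gene symbol; per the labels' protocols, Trizol RNA was treated with DNase and made into stranded mRNA libraries, and per the submitters' processing notes TopHat2 2.0.9, Bowtie2 2.1.0, HTSeq, edgeR and DESeq were used with build dm6. The sources used here do not say which annotation or strand setting the counting used, so reads of genes that overlap on opposite strands may be mixed, which touches 10 of the 262 named genes with a position by over 20% of their exon bases. Positions are from the Ensembl annotation of dm6; 13320 of 17716 symbols matched a current name, 4215 a synonym and 181 none. A 0 can also come from the counting, since 1511 of 13838 protein-coding symbols are listed at 0 in all 12 libraries.

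The 6 libraries alone were fitted with edgeR 4.0.16 in R 4.3.3 (filterByExpr, which kept 8874 symbols, TMM scaling, quasi-likelihood test with 4 residual degrees of freedom). Calls are at a Benjamini-Hochberg adjusted p under 0.05 over all genes tested, and the SE is the log2 fold change divided by the square root of F. In a check on simulated counts the test called 60 of 100 genes changed 2-fold, 86 of 100 changed 4-fold, and 4 unchanged genes. These counts were drawn for each gene independently, without the shifts shared by many genes of a library or the length trends seen here. Far fewer genes were changed in them than were called here. The rates therefore need not hold for the 6 libraries. The 42 gene lists (1109 members found, 6 not found), the named genes and the comparison were chosen with earlier results of these data known. Genes were named as the 15 highest and 15 lowest non-overlapping called genes averaging 5 CPM or more, the called members of each list, the 2 members of smallest adjusted p of lists with fewer calls, and all Notch core and E(spl) genes; other list members, and genes outside this rule, were named after their values were seen. Alternatives were RLE size factors, library totals, DESeq2 1.42.0, no filter, all 12 libraries, a replicate block, WT1 alone, each library left out, and, added after seeing the data, offsets corrected for exon length.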

Additional observations from a re-analysis of the deposited data

How the results depend on the processing

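With all 6 libraries 529 genes were higher and 762 lower in N. Both counts kept within 1.5 times under RLE size factors (505 and 790), library totals (386 and 697), no filter on low counts (372 and 564) and the exon length correction (682 and 997). DESeq2 called 863 higher and 1117 lower, the fit over all 12 libraries 103 and 196, and WT1 alone 866 and 946. Fits without 1 library called 148 to 1343 higher and 332 to 1307 lower. The share of calls that were higher was 41.0% with all libraries and 50.7% without WT3. The replicate block called 212 and 406, and the cause of the lower count was not tested. The replicate numbers are not shown to pair the libraries. Deviations from the group means of N and WT libraries with the same number had correlations of −0.122, −0.470 and 0.0127 across 8874 genes. The −0.470 was of N2 with WT2, which followed exon length in opposite directions, and the part of length in it was not tested. No named gene changed direction with a call under any setting. Fits without 1 library, that without WT3 among them, have 3 residual degrees of freedom, and the part of this in their counts was not tested. Genes near the filter rest on few counts.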

Other observations

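Genes of the germline and of the piRNA pathway were not among the lists and were picked out after their values were seen. vas had 3.14, 2.57 and 2.65 CPM in N, against 0.813, 0.616 and 0.634 CPM in WT (log2 fold change 2.01 ± 0.30, edgeR adjusted p = 0.0061), and krimp had 13.6, 10.8 and 12.3 CPM in N, against 3.85, 3.05 and 4.95 CPM in WT (1.63 ± 0.22, adjusted p = 0.00382). tut (0.91), del (0.70) and vret (0.59) were also called higher (adjusted p = 0.00202, 0.00488 and 0.0115). nos, at most 0.608 CPM, and piwi were not called (adjusted p = 0.0762 and 0.147). aub had 4.53, 1.73 and 3.12 CPM in N, against 13.0, 11.2 and 0.829 CPM in WT, so that it turned on WT3 (adjusted p = 0.305).

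Of 38 tested cytochrome P450 genes 4 were higher and 7 lower, 28.9% against 14.5% of all genes. Of 25 glutathione S-transferase genes 2 were higher and 4 lower, 24.0%. Cyp4p2 had 262, 272 and 218 CPM in N, against 109, 104 and 96.7 CPM in WT (1.28 ± 0.10, edgeR adjusted p = 0.000509), and Cyp4e2 had 9.01, 11.5 and 10.6 CPM in N, against 31.6, 27.1 and 30.8 CPM in WT (−1.52 ± 0.13, adjusted p = 0.00062). Both were called in every fit without 1 library.

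By chromosome arm, 7.01% of the tested genes of X were higher and 6.88% lower, against 4.80% and 8.24% on 3R and 1.25% each on chromosome 4. No test of the arms was made.

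A pair of genes named after their values were seen were low in WT3 and lowest among the N libraries in N2. DAT, the dopamine transporter gene, had 3.34, 0.781 and 2.68 CPM in N, against 18.9, 18.5 and 0.0731 CPM in WT, and DnaJ-1 had 206, 125 and 257 CPM in N, against 370, 404 and 72.6 CPM in WT. Neither was called with all 6 libraries (edgeR adjusted p = 0.257 and 0.58).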
